A study of Mus musculus with 6 samples.

Results

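Collagens and laminins are the chains that build the extracellular matrix. Of 54532 genes in the deposited tables, 55 protein-coding genes had a GRCm38 symbol of the form Col or Lam followed by a chain number, with 1 laminin chain not analysed here. They comprise 44 collagen chains, 10 laminin chains and Col4a3bp, a ceramide transfer protein that shares only the beginning of the symbol. RNA was measured in cells purified by STA-PUT, a sedimentation of cells by size, from mouse testis at about postnatal day 80 and labelled as pachytene, the stage of meiosis at which homologous chromosomes are paired. The groups were wild type (WT), mice without MAPS, a protein of male pachytene cells (KO, MAPS-/-), and the KO line with MAPS overexpression (EE_KO, MAPSEE;MAPS-/-), with 2 libraries each. The study used 3 mice of identical genotype per group and 2 independent experiments. The labels do not say what drives the added MAPS, whether a library pools mice, or which experiment a library belongs to, so the p-values cover no more than the spread among these libraries, which may be technical.

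Collagen chains wind into trimers through repeated glycine-led triplets. Fibrillar collagens bear tension, fibril-associated collagens decorate the fibrils, and type IV collagens form the sheet of the basement membrane together with laminins, which are trimers of an alpha, a beta and a gamma chain. In the testis the basement membrane lies between the Sertoli cells and the peritubular cells, which both make it, while the germ cells lie on the inner side of it.

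The 6 libraries held 14178387 to 16565238 reads on genes, recovered from the FPKM, a read level scaled by gene length and library size. The library sizes that the values imply, 13999589 to 17966256, differ from these totals, and median-of-ratios factors over the deposited values were 1.02 in every library, so that scaling would change nothing. At the implied sizes 1 read over 7 kb of exon stood for 0.00795 to 0.0102 FPKM. The MAPS gene, 1700102P08Rik, stood at 157 and 150 FPKM in WT, 7.97 and 10.1 in KO, and 109 and 82.2 in EE_KO. Though described as overexpression, EE_KO was thus at 62.1% of WT, with both libraries below both of WT. That difference was not called by limma (adjusted p = 0.320). The KO libraries stood apart from their cell label. The 10 markers of pachytene spermatocytes summed to 6341 to 6959 FPKM in WT, 230 to 284 in KO and 6009 to 6463 in EE_KO, and the 8 spermatid markers to 1426 to 3033, 17.2 to 18.0 and 1791 to 2617. The 8 spermatogonia markers summed to 20.5 to 22.2, 189 to 232 and 18.6 to 23.6. All 7 that could be tested were called higher in KO (2 of them below 1 FPKM in WT), where 37.7% of all genes tested were. The other marker, untested, was lower in KO with no overlap. The 44 markers of Sertoli, Leydig, peritubular, endothelial and macrophage cells summed to 315 to 361 in WT, 5408 to 5683 in KO and 309 to 589 in EE_KO. Sertoli markers alone summed to 240 to 246, 3298 to 3560 and 216 to 404, and those of peritubular and fibroblast-like cells to 2.74 to 2.84, 24.4 to 26.9 and 2.37 to 5.85. Of the 44, 29 could be tested and were called higher in KO against WT, where 37.7% of all genes tested were; 9 of the 29 lay below 1 FPKM in WT and passed the filter on low values through KO, which leaves them only a rise to show. Over all 44, 42 were higher in KO with no overlap and 1, of the peritubular list, was lower. Of all genes above 0, 33.1% were higher and 36.0% lower in this way. Only 3 of the 9 peritubular and fibroblast-like markers could be tested. Of the 44 only C1qa, of macrophages, was at 0 throughout a group (WT). Each change of a chain in KO below moved beside these markers, and the part of the markers in it was not tested. In such bulk samples fewer cells of a type and less RNA per cell cannot be told apart.

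Promoters are shown for chains at the centre of both patterns described below: the neighbours Col4a1 and Col4a2, which are read in opposite directions and rose together in KO, Col27a1, which also rose, and Col16a1 and Col20a1, which fell. Each sequence runs from 250 bases before to 50 bases after the RefSeq start on GRCm38.p6, 5′ to 3′ on the strand of the gene. Capitals mark a GC box (GGGCGG) or a CCAAT box (CCAAT) on either strand. The Col4a1 window is chr8:11312777-11313076 (minus strand), and the Col4a2 window is chr8:11312555-11312854 (plus strand); they share 78 bases. The Col27a1 window is chr4:63215162-63215461, the Col16a1 window chr4:130047590-130047889 and the Col20a1 window chr2:180986285-180986584, all on the plus strand.
Col4a1: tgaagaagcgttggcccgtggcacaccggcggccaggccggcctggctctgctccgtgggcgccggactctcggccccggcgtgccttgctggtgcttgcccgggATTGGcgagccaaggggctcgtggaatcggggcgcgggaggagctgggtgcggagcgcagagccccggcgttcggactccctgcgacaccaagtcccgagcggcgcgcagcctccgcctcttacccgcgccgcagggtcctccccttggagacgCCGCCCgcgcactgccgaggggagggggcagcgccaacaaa
Col4a2: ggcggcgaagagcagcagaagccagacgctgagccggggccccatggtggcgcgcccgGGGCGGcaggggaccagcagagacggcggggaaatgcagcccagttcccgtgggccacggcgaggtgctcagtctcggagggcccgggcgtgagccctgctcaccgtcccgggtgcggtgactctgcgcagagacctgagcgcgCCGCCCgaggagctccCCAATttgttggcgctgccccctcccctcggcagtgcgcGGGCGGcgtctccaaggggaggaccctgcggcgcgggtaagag
Col27a1: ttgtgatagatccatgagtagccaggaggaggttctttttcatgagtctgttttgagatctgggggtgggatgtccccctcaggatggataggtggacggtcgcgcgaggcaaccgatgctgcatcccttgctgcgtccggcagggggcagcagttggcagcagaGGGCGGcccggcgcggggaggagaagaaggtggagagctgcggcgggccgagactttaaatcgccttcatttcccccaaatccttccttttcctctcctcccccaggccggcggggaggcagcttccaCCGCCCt
Col16a1: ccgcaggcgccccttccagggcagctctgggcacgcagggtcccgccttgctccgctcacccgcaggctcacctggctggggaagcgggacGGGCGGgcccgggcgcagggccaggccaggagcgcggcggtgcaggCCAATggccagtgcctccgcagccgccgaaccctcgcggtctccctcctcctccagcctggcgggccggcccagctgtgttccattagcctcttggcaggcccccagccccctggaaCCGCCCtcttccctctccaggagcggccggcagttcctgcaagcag
Col20a1: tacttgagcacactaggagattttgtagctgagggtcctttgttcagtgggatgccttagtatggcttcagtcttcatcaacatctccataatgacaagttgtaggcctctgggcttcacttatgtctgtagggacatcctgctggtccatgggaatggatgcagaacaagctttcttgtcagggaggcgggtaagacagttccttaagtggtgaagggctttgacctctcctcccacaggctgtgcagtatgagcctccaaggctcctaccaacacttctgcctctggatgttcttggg
The Col4a1 and Col4a2 windows hold 37 and 33 CpG dinucleotides, Col27a1 holds 18 and Col16a1 holds 24, while Col20a1 holds 1 and neither box. A promoter was found for 39 of the 54 chains, 43 windows in all. Their median was 11 CpG, against 7 over all 32851 windows of the table. It was 16 for the 13 windows of chains called higher in KO and 3 for the 4 windows of chains called lower. These 4 cover only 4 of the 7 chains called lower and held from 1 to 24 CpG. A GC box stood in 60.5% of chain windows and 35.7% of all windows, a CCAAT box in 32.6% and 37.4%, and a TATA box (TATAAA) in 11.6% and 13.6%. The cyclic AMP element (TGACGTCA) stood in 2.33% and 1.79%. The GC box shares were alike in the windows of chains called higher and lower in KO, at 76.9% and 75.0%. All motifs were searched on both strands, and no CCAAT match shared a base with a GC box match in the sequences printed. Col16a1, which fell, holds 24 CpG and 2 GC boxes, inside the range of the 3 printed chains that rose (18 to 37 CpG, 1 to 3 GC boxes).

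In WT the highest collagen was Col16a1, a fibril-associated collagen, at 32.5 ± 0.00495 FPKM (SD, n = 2). It was followed by the fibrillar Col2a1, best known from cartilage, at 8.82 ± 1.23, and by the fibril-associated Col20a1 and Col22a1 at 8.57 ± 0.152 and 8.35 ± 3.23. These last levels overlapped between libraries. Next came the laminin alpha chain Lama2 at 2.68 ± 0.148 and the type VI chain Col6a4 at 2.35 ± 0.0412, which did not overlap each other. Col16a1 alone held 35.2% of the summed FPKM of the 54 chains in WT, and the 9 fibril-associated collagens together held 59.6%. In KO the order was another one. The multiplexin Col18a1, a basement membrane collagen whose end is released as endostatin, led at 53.2 ± 7.07 FPKM, followed by Lama1 at 20.7 ± 0.566, the fibrillar Col27a1 at 13 ± 1.93, Lamc1 at 10.2 ± 2.54 and Col4a1 at 9.04 ± 0.113. Col18a1, Lama1 and Col27a1 did not overlap one another, while Col27a1 (11.7 and 14.4 FPKM) and Lamc1 (12.0 and 8.38) did, as did Lamc1 and Col4a1. The fibril-associated collagens held 3.41% of the summed FPKM in KO and 57.5% in EE_KO.

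**Figure D1:**
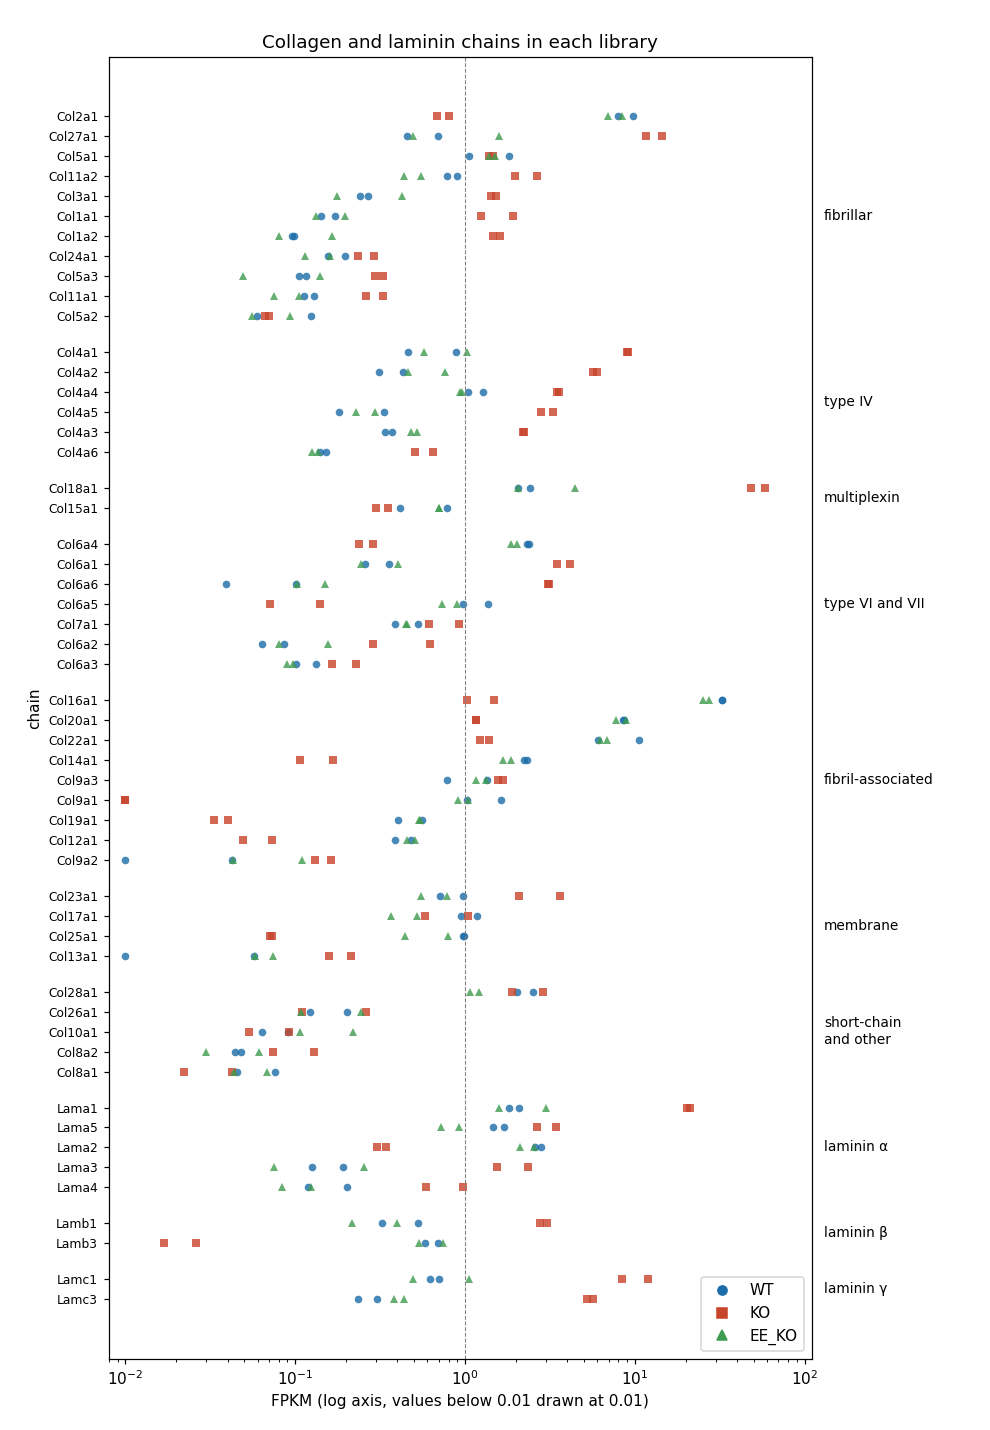
FPKM of the chains in each library, with 1 of the 54 not drawn (log axis; circles WT, squares KO, triangles EE_KO; 2 libraries per group; values below 0.01 drawn at 0.01; the dashed line marks 1 FPKM), grouped by structural class. The KO squares stand to the right of the other symbols for all 6 type IV chains and to the left for 7 of the 9 fibril-associated chains.

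The comparison of KO with WT asks how the RNA of cells purified in the same way differs without MAPS. The cell markers of the libraries differed as well. The 5 tested type IV chains, Col18a1 and 5 of 6 tested laminin chains rose, and 4 of 5 tested fibril-associated chains fell. Of the 54 chains 26 had a mean of at least 1 FPKM over the 6 libraries and were tested with limma; 16 were called higher, 7 lower and 3 were not called at an adjusted p below 0.05. Over all 15907 genes tested 84.8% were called, 37.7% higher and 47.1% lower, so a call as such does not set the chains apart. The median log2 difference was 1.06 for the chains tested and -0.26 for all genes tested. Of the 26 chains 12 lay below 1 FPKM in WT and passed the filter through KO, which leaves them only a rise to show. All 12 are among those called higher. They include 4 of the 5 tested type IV chains and 3 of the 6 tested laminin chains. Of the 14 tested chains with a WT mean of at least 1 FPKM, 4 were called higher and 7 lower. Of the 26 tested chains, 22 had a KO mean of at least 1 FPKM. The others, Col2a1, Lama2, Col6a4 and Col14a1, passed the filter through WT and EE_KO, which leaves them only a fall to show. All of them are among the 7. Over all 54 chains without a filter, 33 were higher and 15 lower in KO with no overlap between the libraries (33.1% and 36.0% of all genes above 0), and the median difference was 0.22 against 0.00. In a fit with no filter 27 chains were called higher and 13 lower, 40 of 54 in all, where 24.5% and 25.9% of all genes were, 50.4% in all. Without KO replicate 1, 1 KO library was left and 21 chains were tested, and the calls of that fit are not counted here.

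**Figure D2:**
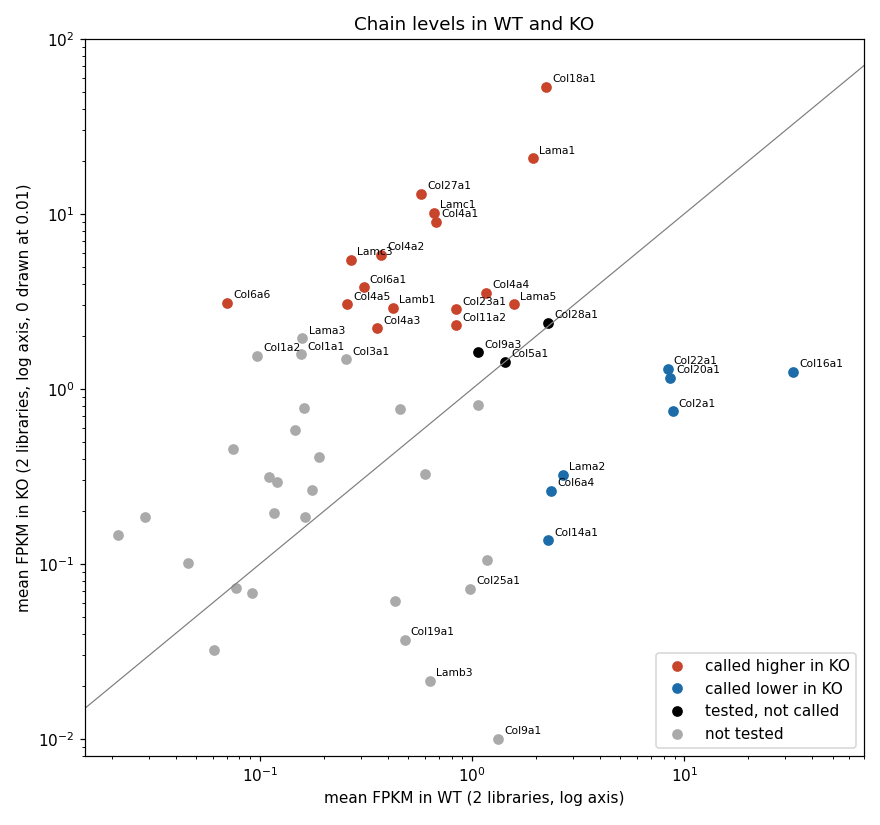
Mean FPKM of each chain in WT (x) and KO (y), both on log axes, with the line of equal levels; a mean of 0 is drawn at 0.01 and colours give the limma call. Col16a1, at 32.5 FPKM in WT, lies far below the line, and Col18a1, at 53.2 FPKM in KO, far above it.

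All 6 type IV chains, which form the sheet of the basement membrane, were higher in KO with no overlap. Of all genes above 0, 33.1% were. The 5 chains that were tested were all called higher. Of these 5, 4 lay below 1 FPKM in WT and had only a rise to show, where 37.7% of all genes tested were called higher. The summed level of the 6 chains was 2.76 and 3.17 FPKM in WT, 24.4 and 24.1 in KO, and 3.71 and 2.81 in EE_KO. Col4a1 (ENSMUSG00000031502) stood at 0.459 and 0.885 FPKM in WT, 9.12 and 8.96 in KO, and 1.02 and 0.573 in EE_KO. The KO libraries lay 13.4-fold above WT in the mean (log2 difference 2.60 on the log2(FPKM + 1) scale, SE 0.20, adjusted p = 1.84e-05), and the WT and EE_KO libraries overlapped. Its partner Col4a2 stood at 0.313 and 0.429, 5.67 and 5.97, and 0.764 and 0.464 FPKM in the same order of groups (2.32, SE 0.16, adjusted p = 1.33e-05). The ratio of Col4a1 to Col4a2 was 1.47 and 2.06 in WT, 1.61 and 1.5 in KO, and 1.34 and 1.23 in EE_KO, so the KO ratios lay within the WT range while both levels were over 10 times higher. The WT ratios rest on 29 to 100 reads a gene.

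The other type IV pairs are also read in opposite directions. Col4a3 stood at 0.373 and 0.338 FPKM in WT and 2.21 and 2.22 in KO (1.25, SE 0.15, adjusted p = 0.000152). Col4a4 stood at 1.28 and 1.05 in WT and 3.59 and 3.49 in KO (1.07, SE 0.15, adjusted p = 0.00035). Unlike that of the first pair, the ratio of Col4a3 to Col4a4 differed between WT and KO without overlap, at 0.291 and 0.323 in WT and 0.614 and 0.637 in KO. In EE_KO it stood between them, at 0.539 and 0.518. In the first pair the EE_KO ratios, 1.34 and 1.23, lay below those of every WT and KO library. Col4a5 and Col4a6 lie on the X chromosome, which pachytene cells silence. Col4a5 rose from 0.181 and 0.334 to 3.31 and 2.78 FPKM (1.69, SE 0.16, adjusted p = 5.61e-05) and stood at 0.295 and 0.229 in EE_KO. Col4a6 was too low to test, at 0.152 and 0.141 FPKM in WT, 0.51 and 0.65 in KO, and 0.137 and 0.126 in EE_KO. Col4a5 was thus 11.8-fold and Col4a6 3.95-fold higher in KO, within the range of 3.05 to 15.7-fold of the 4 autosomal type IV chains.

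Col18a1 (ENSMUSG00000001435, chromosome 10) showed the largest difference of the tested chains on the log2(FPKM + 1) scale. It stood at 2.06 and 2.40 FPKM in WT, 58.2 and 48.2 in KO, and 4.46 and 2.04 in EE_KO. KO was 23.9-fold above WT (4.07, SE 0.27, adjusted p = 1.02e-05) and the WT and EE_KO libraries overlapped. Col15a1, the other multiplexin, was untested, at 0.416 and 0.780 FPKM in WT, 0.351 and 0.299 in KO, and 0.699 and 0.705 in EE_KO; its KO libraries lay below those of WT.

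Of the 10 laminin chains 8 were higher in KO and 2 lower, with no overlap. Over all genes above 0, 33.1% were higher and 36.0% lower in this way. Of the 6 tested, 5 were called higher and 1 lower, where 37.7% and 47.1% of all genes tested were. Of the 6, 3 lay below 1 FPKM in WT and had only a rise to show. Lama2 lay below 1 FPKM in KO and had only a fall to show. Lama1, an alpha chain of the tubular basement membrane, stood at 2.07 and 1.82 FPKM in WT, 21.1 and 20.3 in KO, and 3.01 and 1.59 in EE_KO (2.89, SE 0.21, adjusted p = 1.62e-05). Lamc1, the gamma chain of most laminins, stood at 0.622 and 0.703 in WT, 12.0 and 8.38 in KO, and 1.05 and 0.493 in EE_KO (2.73, SE 0.23, adjusted p = 2.65e-05). Both were over 10 times higher in KO, and their WT and EE_KO libraries overlapped. Lamb1, a widespread beta chain, rose from 0.324 and 0.526 to 3.03 and 2.78 FPKM (1.46, SE 0.17, adjusted p = 0.000135). Lama5, an alpha chain of many adult epithelia, rose from 1.47 and 1.69 to 3.43 and 2.66 (0.64, SE 0.17, adjusted p = 0.00928; adjusted p = 0.0714 without KO replicate 1). It was at its lowest in EE_KO, at 0.918 and 0.722 FPKM.

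Lama2, the alpha chain of muscle laminin, moved the other way, from 2.79 and 2.58 FPKM in WT to 0.341 and 0.303 in KO, with 2.53 and 2.11 in EE_KO (-1.48, SE 0.15, adjusted p = 7.68e-05). In an earlier list of 18 chains of somatic testis matrix, which included Lama2, 8 of 10 tested chains were called higher, Lama2 lower and Col5a1 neither. Of all genes tested 37.7% were called higher and 47.1% lower. Of the 10 chains, 5 lay below 1 FPKM in WT and had only a rise to show, and Lama2 had only a fall to show. The 18 summed to 12.8 and 14.9 FPKM in WT, 125 and 109 in KO, and 17.9 and 11.4 in EE_KO. Lama3, Lamb3 and Lamc3 are described as the laminin at the spermatid face of the junction between Sertoli cell and spermatid, and they did not move as a unit. Lamc3 rose from 0.235 and 0.304 to 5.68 and 5.25 FPKM, 20.3-fold (2.35, SE 0.15, adjusted p = 8.14e-06). Lama3, untested, stood at 0.126 and 0.191 in WT and 2.35 and 1.54 in KO. Lamb3, also untested, stood at 0.691 and 0.580 FPKM in WT, 0.0168 and 0.0261 in KO, and 0.744 and 0.536 in EE_KO. It had 64 and 58 reads in WT and 2 and 3 in KO, a 29.6-fold difference with an exact 95% interval of 12.3 to 92.8 that covers counting error only. Of these 3 chains the beta chain thus lay lower in KO, while the alpha and gamma chains lay higher. Lama4, of vessel walls and also untested, stood at 0.118 and 0.203 FPKM in WT and 0.969 and 0.587 in KO.

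Lower calls were most frequent among the fibril-associated collagens. Their summed level was 52.1 and 58.0 FPKM in WT, 5.57 and 5.86 in KO, and 45.0 and 47.4 in EE_KO. Of 9 chains, 7 were lower in KO and 2 higher, with no overlap, where 36.0% and 33.1% of all genes above 0 were. Tested were 5, with 4 called lower and Col9a3 not called, where 47.1% of all genes tested were called lower. Of these 4, Col14a1 lay below 1 FPKM in KO and had only a fall to show. Col16a1 (ENSMUSG00000040690) stood at 32.5 FPKM in both WT libraries, at 1.03 and 1.48 in KO, and at 25.3 and 27.3 in EE_KO. KO was 3.86% of WT (-3.90, SE 0.13, adjusted p = 7.61e-07), on 3071 and 3321 reads in WT against 125 and 173 in KO. EE_KO was 80.9% of WT and its libraries lay below both of WT, though the difference was not called (-0.30, SE 0.13, adjusted p = 0.708).

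Col20a1, a little-studied member of the class, stood at 8.68 and 8.47 FPKM in WT, 1.16 in both KO libraries, and 7.72 and 8.89 in EE_KO (-2.15, SE 0.13, adjusted p = 7.49e-06). Col22a1, known from tissue junctions such as that of muscle and tendon, stood at 6.07 and 10.6 in WT, 1.38 and 1.23 in KO, and 6.81 and 6.22 in EE_KO (-1.98, SE 0.24, adjusted p = 0.000167). Col14a1 stood at 2.23 and 2.32 in WT, 0.167 and 0.107 in KO, and 1.67 and 1.87 in EE_KO (-1.53, SE 0.15, adjusted p = 5.73e-05). In all 3 the KO libraries lay below every other library. Of the lower members of the class, Col9a1, Col12a1 and Col19a1 were also lowest in KO, while Col9a2 was highest there. Col9a1, of cartilage fibrils, had 73 and 125 reads in WT (1.03 and 1.63 FPKM), none in KO, and 77 and 69 in EE_KO. With a floor of 3 reads per library it was at least 39.7-fold lower in KO. Col12a1 stood at 0.385 and 0.482 FPKM in WT, 0.0731 and 0.0491 in KO, and 0.507 and 0.456 in EE_KO. Col19a1 stood at 0.405 and 0.556 in WT, 0.0404 and 0.0334 in KO, and 0.535 and 0.543 in EE_KO. For both the WT and EE_KO libraries overlapped. These 3 were untested, and in the fit with no filter all of them were called lower, as were 7 of the 9 chains.

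The other chains of type IX collagen had another order of levels than Col9a1. Col9a3 stood at 0.779 and 1.35 FPKM in WT, 1.56 and 1.67 in KO, and 1.33 and 1.16 in EE_KO (0.35, SE 0.18, adjusted p = 0.110). It shares 234 exon bases with Tcfl5 on the opposite strand, which stood at 181 to 196 FPKM in WT and 11.4 to 13.7 in KO, and without the strand of the reads both genes cannot be told apart there. Col9a2 had at most 9 reads in any library and was highest in KO, at 0.162 and 0.130 FPKM. In WT it stood at 0 and 0.0427, and in EE_KO at 0.110 and 0.0432. The limma fit with no filter called it higher in KO (0.17, SE 0.05, adjusted p = 0.0463).

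**Figure D3:**
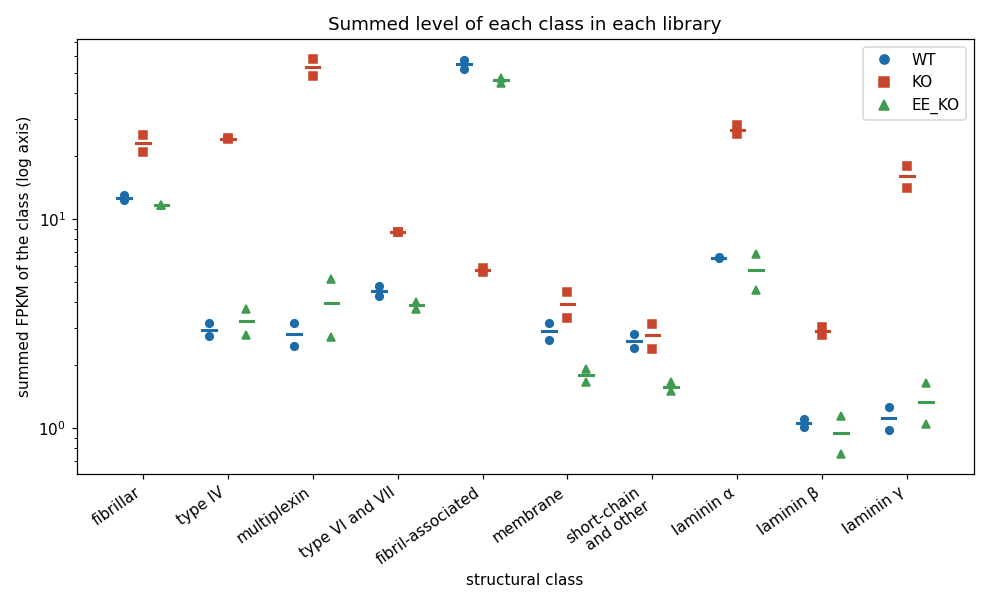
Summed FPKM of each structural class in each library (log axis; circles WT, squares KO, triangles EE_KO; short lines are means of 2 libraries). The fibril-associated sum falls from 52.1 and 58.0 FPKM in WT to 5.57 and 5.86 in KO, and the type IV, multiplexin and laminin gamma sums rise.

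The fibrillar collagens split. Col2a1 fell from 9.69 and 7.96 FPKM to 0.686 and 0.803 and stood at 6.99 and 8.44 in EE_KO (-2.49, SE 0.16, adjusted p = 8.88e-06). Col27a1 rose from 0.455 and 0.695 to 11.7 and 14.4 FPKM, 22.7-fold (3.15, SE 0.27, adjusted p = 3.36e-05), with 1.59 and 0.493 in EE_KO. Both are chains of cartilage, and they moved in opposite directions. Col11a2 rose from 0.899 and 0.783 to 1.96 and 2.66 FPKM (0.84, SE 0.17, adjusted p = 0.00274). The chains of ordinary connective tissue, Col1a1, Col1a2 and Col3a1, were too low to test but higher in KO with no overlap. Col1a1 went from 0.141 and 0.171 to 1.25 and 1.90 FPKM, Col1a2 from 0.0977 and 0.0957 to 1.47 and 1.62, and Col3a1 from 0.240 and 0.269 to 1.43 and 1.52. Their KO levels stayed well under those of the type IV pair Col4a1 and Col4a2. Col5a1, which starts fibrils, stood at 1.06 and 1.81 in WT, 1.46 and 1.39 in KO, and 1.39 and 1.5 in EE_KO, and was not called (0.01, SE 0.19, adjusted p = 0.958).

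Type VI collagen, a beaded filament around cells, split within its own genes. Col6a1 rose from 0.359 and 0.256 FPKM to 4.13 and 3.50 (1.88, SE 0.16, adjusted p = 3.38e-05). Col6a6 rose from 0.0390 and 0.101 to 3.09 and 3.13 FPKM, on 5 and 14 reads in WT and 509 and 499 in KO. It had the largest fold of the tested chains, 44.5, from a WT level near the limit of the depth (1.94, SE 0.15, adjusted p = 1.90e-05). Col6a4 fell from 2.32 and 2.38 to 0.287 and 0.236 FPKM (-1.41, SE 0.15, adjusted p = 7.88e-05) and stood at 2.03 and 1.86 in EE_KO. Col6a5, untested, went from 1.37 and 0.976 to 0.0710 and 0.141. Col6a4, Col6a5 and Col6a6 are relatives of Col6a3 on chromosome 9, and 2 of these neighbours lay lower in KO while Col6a6 lay higher.

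Among the membrane collagens, Col23a1 rose from 0.710 and 0.968 FPKM to 2.09 and 3.60 (1.04, SE 0.23, adjusted p = 0.00393). Col25a1, untested, went the other way, from 0.988 and 0.970 to 0.0731 and 0.0711, with 0.443 and 0.795 in EE_KO. Col17a1, of hemidesmosomes, overlapped between WT (0.942 and 1.18) and KO (1.04 and 0.579) and was lower in EE_KO (0.367 and 0.522). Of the remaining class, Col28a1 was tested and not called, at 2.52 and 2.03 FPKM in WT and 2.88 and 1.90 in KO (0.04, SE 0.19, adjusted p = 0.856). Col10a1 and Col26a1 reached at most 0.218 and 0.260 FPKM in any library. In all, 21 of the 54 chains stayed below 1 FPKM in every library. Col4a3bp, the member that is no collagen, stood at 11 and 11.1 FPKM in WT, 16.1 and 12.9 in KO, and 10.3 and 11.4 in EE_KO (0.36, SE 0.14, adjusted p = 0.0428).

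**Figure D4:**
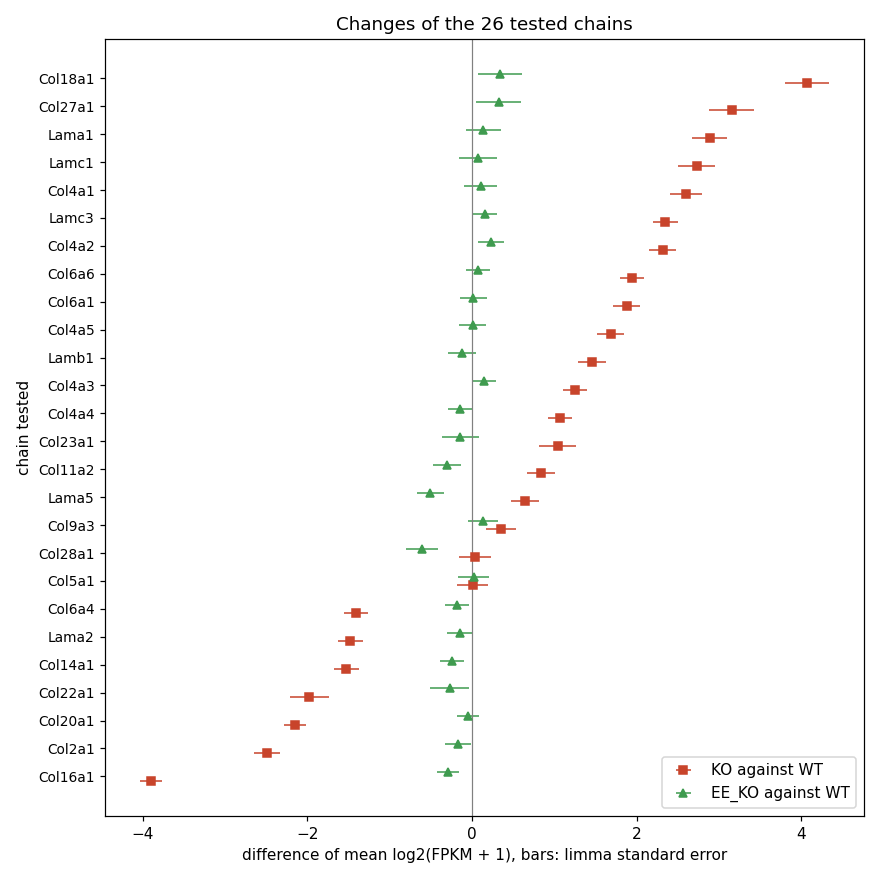
Difference of mean log2(FPKM + 1) for each of the 26 tested chains, KO against WT (squares) and EE_KO against WT (triangles), with limma's standard error as bars. KO differences run from -3.90 (Col16a1) to 4.07 (Col18a1), while those of EE_KO lie between -0.61 (Col28a1) and 0.34 (Col18a1).

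The comparison of EE_KO with WT asks whether the RNA levels with added MAPS are those of WT. No chain was called by limma (0 of 26; 0.0377% of all genes tested were called), 2 had an unadjusted p under 0.05, and neither voom on the recovered reads nor the fit with no filter called one (0.0% of all genes in the latter). The differences ran from -0.61 to 0.34 on the log2 scale. The 2 chains with a low unadjusted p were Lama5 (-0.50, SE 0.17, adjusted p = 0.532) and Col28a1 (-0.61, SE 0.19, adjusted p = 0.503), both lower in EE_KO with no overlap. Under voom 4 chains had an unadjusted p under 0.05, these 2, Col11a2 and Col16a1. With no filter 3 did, these 2 and Col17a1. Col28a1 stood at 1.07 and 1.21 FPKM in EE_KO, 50.2% of WT. Over all 54 chains 7 were higher and 14 lower in EE_KO with no overlap, against 14.1% and 14.6% of all genes above 0. Among the 7 chains that fell in KO, EE_KO stood between 77.7% (Col14a1) and 96.8% (Col20a1) of WT. In 4 of these 7 both EE_KO libraries lay below both of WT.

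The EE_KO libraries differed from each other in the chains that rose in KO. EE_KO replicate 1 was above replicate 2 in 15 of those 16 chains, with sums of 17.2 and 10.1 FPKM, against 11.8 and 13.3 in WT and 150 and 138 in KO. Of all genes called higher in KO, 4286 of 5994 stood higher in EE_KO replicate 1, and of all genes tested 7489 of 15907. The somatic markers summed to 589 FPKM in EE_KO replicate 1 and 309 in replicate 2; their part in this difference was not tested. The 7 chains that fell in KO summed to 53.1 and 56.7 FPKM in the EE_KO libraries, and 3 of them were higher in replicate 1.

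Against KO, EE_KO had 7 chains called higher and 17 lower of 26, where 84.2% of all genes tested were called, 46.8% higher and 37.4% lower. This comparison shares the KO libraries with that of KO and WT. The 7 called higher are the 7 that fell in KO, led by Col16a1 (3.61, SE 0.13, adjusted p = 1.06e-06) and Col2a1 (2.32, SE 0.16, adjusted p = 1.32e-05). The 17 called lower are the 16 that rose in KO and Col28a1 (-0.65, SE 0.19, adjusted p = 0.0159). They were led by Col18a1 (-3.73, SE 0.27, adjusted p = 1.62e-05) and Col27a1 (-2.83, SE 0.27, adjusted p = 6.14e-05). The call of Col28a1 was lost without KO replicate 1 (adjusted p = 0.108) and without EE_KO replicate 1 (adjusted p = 0.0621). Both of these fits left 1 library in a group. With no filter 39 of 54 chains were called, where 49.3% of all genes were.

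Genes that fold, bind and cut these chains were described from 5 lists, whose counts stand beside the 84.8% of all genes tested that were called, 37.7% higher and 47.1% lower. As for the chains, a gene below 1 FPKM in WT that passed the filter through KO had only a rise to show. Likewise, a gene below 1 FPKM in KO that passed through the other groups had only a fall to show. Of 29 genes of collagen folding and processing 14 were tested (3 below 1 FPKM in WT), with 12 called higher and 2 lower in KO against WT. Plod2, a lysyl hydroxylase, rose from 0.733 ± 0.0495 to 21.3 ± 1.57 FPKM (3.68, SE 0.18, adjusted p = 3.16e-06), Colgalt1, a collagen galactosyltransferase, from 4.18 ± 0.466 to 60.0 ± 4.40, and P4hb, a subunit of prolyl hydroxylase, from 25.8 ± 0.691 to 93.6 ± 0.150. The 2 that fell, named after their values were seen, were Loxl1, a lysyl oxidase, from 8.57 ± 1.18 to 1.16 ± 0.0396 FPKM, and Mia3, which helps load collagen for secretion, from 27.9 ± 0.356 to 19.1 ± 1.10. Of 14 basement membrane partners 8 were tested (2 below 1 FPKM in WT), with 6 called higher and 2 lower. Agrn rose from 0.791 ± 0.00182 to 13.8 ± 1.44 FPKM, Sparc, a collagen-binding protein, from 38.8 ± 0.0230 to 398 ± 41.4, and Nid1, which links laminin to type IV collagen, from 1.82 ± 0.0395 to 13.3 ± 2.83. Its relative Nid2, named after its values were seen, fell from 9.35 ± 0.487 to 3.69 ± 1.08, as did Smoc2 from 2.14 ± 0.697 to 0.334 ± 0.00360. Smoc2 lay below 1 FPKM in KO and had only a fall to show.

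Of 15 receptors of collagen and laminin 6 were tested (1 below 1 FPKM in WT), with 5 called higher and 1 lower. The integrin subunits Itgb1 and Itga6 rose from 6.23 ± 0.201 to 66.0 ± 2.79 FPKM and from 1.32 ± 0.288 to 15.2 ± 1.43, and the collagen receptor kinase Ddr1 from 2.53 ± 0.526 to 68.4 ± 7.54 (4.30, SE 0.30, adjusted p = 1.33e-05). Itga7, named after its values were seen, fell from 1.49 ± 0.230 to 0.802 ± 0.0635 (-0.46, SE 0.15, adjusted p = 0.0256). It lay below 1 FPKM in KO and had only a fall to show. Of 15 interstitial matrix proteins only Fbln1 and Fn1 were tested, and both rose, Fbln1 from 1.57 ± 0.365 to 10.9 ± 1.20 FPKM and Fn1 from 1.22 ± 0.112 to 5.88 ± 1.09. Over all 15, 8 were higher and 6 lower in KO with no overlap, with a median difference of 0.12. Of all genes above 0, 33.1% were higher and 36.0% lower in this way. The lower ones of the list, untested and named after their values were seen, were Postn (0.880 ± 0.149 in WT and 0.126 ± 0.0384 in KO), Tnc (0.304 ± 0.0395 and 0.0441 ± 0.0319), Tnxb, Lum, Emilin1 and Fbln2. Of 14 matrix proteases and inhibitors 6 were tested and called higher, 3 of them below 1 FPKM in WT. The inhibitor Timp3 went from 1.27 ± 0.0584 to 25.8 ± 2.57 FPKM, Timp1 from 0.384 ± 0.0881 to 48.8 ± 4.31, and the membrane protease Mmp14 from 2.35 ± 0.139 to 34.2 ± 0.000306. In EE_KO against WT none of the genes of these lists was called.

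**Figure D5:**
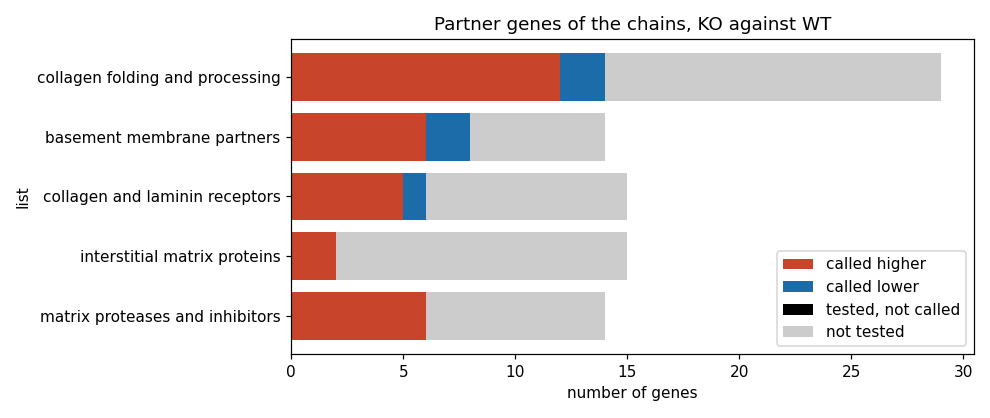
Number of genes of each list that were called higher, called lower, tested without a call or not tested in KO against WT by limma. All tested genes of these lists were called (84.8% of all genes tested were), with 12 higher and 2 lower for folding and processing. In the order of the text, 3, 2, 1, 0 and 3 tested genes of the lists lay below 1 FPKM in WT and had only a rise to show. Smoc2, a basement membrane partner, and Itga7, a receptor, lay below 1 FPKM in KO and had only a fall to show.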

How the data were processed

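The 6 libraries (WT, KO and EE_KO, 2 each) were deposited by the authors as FPKM values of 54532 Ensembl genes. The builds GRCm38 and mm10 are named by the submitters' processing notes; no aligner, counter or annotation release and no read strand is given in the sources used here. GENCODE M21 gave symbols, types, positions and exon lengths (54495 genes matched). FPKM times exon length came out as whole reads (tolerance 0.01) for 96.8 to 97.0% of values above 0, and for 53 of the 55 members in every library (not Col11a2 and Col17a1, whose read numbers are rounded).

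Genes with a mean of at least 1 FPKM were fitted in 1 model over the 6 libraries with limma 3.58.1 (R 4.3.3). Values were log2(FPKM + 1), which shrinks differences of low genes. The variance prior followed the mean, and p-values were adjusted over all 15907 genes (Benjamini-Hochberg). The code of the fit was run on simulated data in which few genes changed, unlike KO here, and no conclusion is drawn from that run. Alternatives were pseudocounts of 0.1 and 0.5, other filters, TPM, quantile and median-of-ratios scaling (the last void, since its factors were equal in all libraries), a replicate block, no trend, only the groups compared, each library left out, voom on the recovered reads, and, added after seeing the data, short RNA genes left out.

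Named are the 3 highest chains of each structural class, the 6 highest in WT, the 5 largest rises and falls, the chains of 2 laminin trimers and the type IV pairs, and the 3 called genes of each partner list with the smallest p. The values of 1 chain are not reported here. Other names were chosen after their values were seen. The members and lists were chosen with earlier results of these data known. Floors and intervals cover counting error only. Figures were drawn with matplotlib 3.10.9 (Python 3.11.15).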

Additional observations from a re-analysis of the deposited data

How the results depend on the processing

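The counts of chains called were 23 in KO against WT, 0 in EE_KO against WT and 24 in EE_KO against KO. With no filter they were 40, 0 and 39, and with a mean of at least 5 FPKM 6, 0 and 6, since 54 and 6 chains were tested. Of all genes tested 84.8%, 0.0377% and 84.2% were called in the main fit, and 50.4%, 0.0% and 49.3% with no filter. The shares of all genes at the other settings are not given here, so those counts show only how the calls of the chains moved. Leaving out 1 library gave 17 to 24 in KO against WT and 18 to 24 in EE_KO against KO, with the low ends without KO replicate 1, where 21 chains were tested; EE_KO against WT kept 0. A replicate block left the counts at 23, 0 and 24; the deviations of same-numbered libraries correlated at -0.02 to 0.08 between groups, so the numbers were not treated as pairs. TPM and quantile scaling moved the median of all genes in KO against WT from -0.26 to 0.12 and 0.04. Of the named chains, leaving out median-of-ratios scaling, which could change nothing, 376 values of the comparison of KO with WT and 374 of that of EE_KO with KO kept their direction and their side of the threshold, 1 and 2 lost their call, and 4 and 4 changed direction. The values that changed direction were of Col28a1 and Col5a1, where they were not called. In KO against WT with 1 library left out, Col28a1 ran from -0.17 (without KO replicate 1) to 0.25, and Col5a1 from -0.21 (without WT replicate 1) to 0.24. In EE_KO against KO, Col5a1 ran from -0.020 (without EE_KO replicate 2) to 0.041 with 1 library left out, and was at -0.32 with TPM and -0.37 with quantile scaling. The cause was not tested. Depth limits the 21 chains below 1 FPKM in every library, and the EE_KO comparison has 2 libraries a group.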
